A study of Mus musculus with 22 samples.

Results

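Tight junctions close the space between the epithelial cells of the choroid plexus (ChP), and so form the barrier between blood and cerebrospinal fluid (CSF). This report gives the RNA levels of 9 genes of that barrier, of 33984 genes in the deposited counts. They are the claudins Cldn1, Cldn2, Cldn3, Cldn10 and Cldn20, the membrane protein Ocln, and the junction plaque proteins Tjp1, Cgn and Cgnl1. The members were chosen by gene symbol, and for each gene the values are those of the transcript most counted across the files together. The RNA came from 14 pools of mouse ChP, 2 pools (A and B) for each of 7 groups. In the conditional model, Otx2lox/lox mice of 3 months (strain label S129) received Cre-Tat, a cell-permeable Cre recombinase protein, or vehicle by icv injection. ChP was taken 15 days later from the lateral ventricles (LV) and the fourth ventricle (4V), as pools of 5 mice for Cre-Tat and 4 for vehicle. Both ventricles came from the same injected mice, so their pools are not independent, but no source states that pools of the same letter hold the same mice. Both treatment groups carry the floxed alleles and had the injection, and no promoter limits which cells take up the protein. In the constitutive model (strain label B6D2), 4V ChP alone was pooled from wildtype mice, from mice labelled Otx2(+/-) that the methods call Otx2+/GFP, both at 3 months, and from mice labelled Otx2(+/AA), whose allele and age are not given in the sources used here. The models differ in strain label, and they are treated here as separate sequencing runs. That split was taken from their file names and library numbers. The comparisons ask whether junction genes differ with the Otx2 label and between ventricles.

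Claudins span the membrane and pair across neighbouring cells. Some seal the junction, and others, with Cldn2 the best known, open a pore for small cations and water. Ocln, with its relatives Marveld2 and Marveld3, is a membrane protein of the same strands. Tjp1 (ZO-1) ties the strands to actin, and cingulin (Cgn) and paracingulin (Cgnl1) are proteins of the plaque. Cldn1, Cldn2 and Cldn3 are known claudins of the ChP epithelium.

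The pools held 22750019 to 50088408 counts over all transcripts, in which a read shared by transcripts can be counted more than once. Otx2 was checked first. On its transcript Otx2-201 it had 8444 and 10294 normalized counts in vehicle LV pools, against 27139 and 22494 with the Cre-Tat label. The log2 fold change of Otx2 was 1.41 in LV ChP (standard error (SE) 0.18, edgeR adjusted p = 0.000507), 1.64 in 4V ChP (SE 0.15, edgeR adjusted p = 1.15e-06) and 1.53 in pools labelled Otx2+/GFP (SE 0.14, edgeR adjusted p = 0.0011). It was 0.06 in pools labelled Otx2+/AA (SE 0.13, edgeR adjusted p = 0.958). Of the 8 Otx2 transcripts, Otx2-206 alone had fewer raw counts in Otx2+/GFP pools (939 and 692) than in wildtype pools (1254 and 972). In both ventricles Otx2-206 had more raw counts in Cre-Tat than in vehicle pools. Counts on Otx2-201 cover the whole transcript, while the study followed Otx2 on a single exon, so they do not check whether that exon was lost. On that exon the paper reports fewer Otx2 reads with Cre-Tat in both ventricles and in Otx2+/GFP mice. It treats these groups as knockdowns of Otx2. The groups are called by their labels below, and every direction is that of the labels. In 14 of the 16 conditional files, the number of the library and the sample carrying the file point to different pools. The number was followed here. Runs joined by number differed by little more than sampling noise (chi-square 1.005 to 1.036 times its degrees of freedom, 8 pairs), while runs joined as attached differed by 22.8 to 40.8 times. That check pairs the runs of a pool and does not show which group a number stands for. The directions of Otx2, Cldn20 and Cldn1 in the Cre-Tat comparisons and of Cldn2 between ventricles rest on following the number. Joined as attached, a pool can hold runs of different groups by number. Vehicle LV pool A, for instance, then holds a Cre-Tat 4V run and a vehicle 4V run. The files so joined gave Otx2 a log2 fold change with Cre-Tat of -0.01 in LV and -0.29 in 4V pools.

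The promoters of 4 members are printed here because these genes passed a test described below: Cldn20, Ocln and Cldn1 passed the test in 4V ChP, and Cldn2 passed it between ventricles. Each is the 250 bases before the RefSeq start, 5′ to 3′ on the strand of the gene, in GRCm38.p6. They lie at chr17:3532304-3532553 (plus strand) for Cldn20, chr13:100552719-100552968 (minus) for Ocln, chr16:26371840-26372089 (minus) for Cldn1 and chrX:139800558-139800807 (plus) for Cldn2. Capitals mark the letters TATAAA.
Cldn20: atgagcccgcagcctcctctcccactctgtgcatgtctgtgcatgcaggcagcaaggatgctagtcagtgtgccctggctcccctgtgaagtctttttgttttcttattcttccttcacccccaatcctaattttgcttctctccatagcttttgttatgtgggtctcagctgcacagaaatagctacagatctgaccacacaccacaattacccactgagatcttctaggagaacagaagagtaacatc
Ocln: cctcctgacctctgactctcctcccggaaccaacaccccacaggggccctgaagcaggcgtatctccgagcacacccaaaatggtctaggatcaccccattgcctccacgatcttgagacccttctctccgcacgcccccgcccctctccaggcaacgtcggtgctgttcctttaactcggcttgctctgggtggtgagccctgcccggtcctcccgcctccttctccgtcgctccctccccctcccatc
Cldn1: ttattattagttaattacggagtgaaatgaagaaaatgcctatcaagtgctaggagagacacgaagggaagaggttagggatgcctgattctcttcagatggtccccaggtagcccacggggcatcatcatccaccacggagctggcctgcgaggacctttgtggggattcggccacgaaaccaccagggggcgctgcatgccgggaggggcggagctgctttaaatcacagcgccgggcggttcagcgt
Cldn2: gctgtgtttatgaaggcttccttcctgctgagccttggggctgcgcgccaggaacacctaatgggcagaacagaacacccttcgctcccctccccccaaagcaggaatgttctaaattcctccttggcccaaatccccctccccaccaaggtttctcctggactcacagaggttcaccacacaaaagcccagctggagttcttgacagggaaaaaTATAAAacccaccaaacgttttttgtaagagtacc
TAATCC, the letters bound by OTX2-type homeodomains, was searched on both strands and is in 2054 of 32851 mouse promoters of this length, or 6.25%. It was in 0 of the 11 windows of the 9 members. TATAAA, on either strand, is in 12.4% of promoters, and among the members it was found in Cldn2 only, 35 bases before the start. A match of letters is a description and not a binding site.

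Levels between genes are given as CPM per kb. These are counts scaled to library size with edgeR's TMM factors, and then divided by the length of the transcript. In the vehicle pools Cldn2 was highest, then Cgnl1 and Cldn1, then Ocln, then Tjp1, Cldn3 and Cgn, with Cldn20 and Cldn10 lowest. Cldn2 was at 236 and 242 in LV ChP, against 179.6 and 158 in the 4V pools, Cgnl1 at 137 and 147 and at 149 and 145, and Cldn1 at 128 and 148 and at 125 and 130. Cgnl1 and Cldn1 did not differ beyond their spread in LV ChP, where their pools overlapped. Ocln was at 50.6 and 48.5 in LV ChP and at 51.9 and 47.5 in 4V ChP. Tjp1 (10.7 and 10.6 in LV ChP) and Cldn3 (10.5 and 10.5) stood next to each other, and Cgn followed at 4.20 and 4.25. The pools of Tjp1 and Cldn3 overlapped in Otx2+/AA and in no other group. Cldn20 was at 3.08 and 2.60 in LV ChP, against 1.78 and 1.25 in the 4V pools. Cldn10 was at 0.705 and 0.994, and at 1.00 and 0.649. By rank among the 20232 genes with a count in the vehicle LV pools, Cldn2 was at 115, Cgnl1 at 222, Cldn1 at 230, Ocln at 800 and Cldn10 at 12670.

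The order of levels moved little between groups. Cgnl1 stood above Cldn2 in the pools labelled Otx2+/GFP (149.7 and 142 against 146 and 126) and Otx2+/AA (144 and 140 against 110 and 114). The pools of these genes overlapped in the former and not in the latter. Cldn10 stood above Cldn20 in 4V pools labelled Cre-Tat (0.355 and 0.305 against 0.245 and 0.151). Over the 14 pools, Cldn20 was counted 2 to 42 times and Cldn10 4 to 42 times, so their values rest on few reads.

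**Figure D1:**
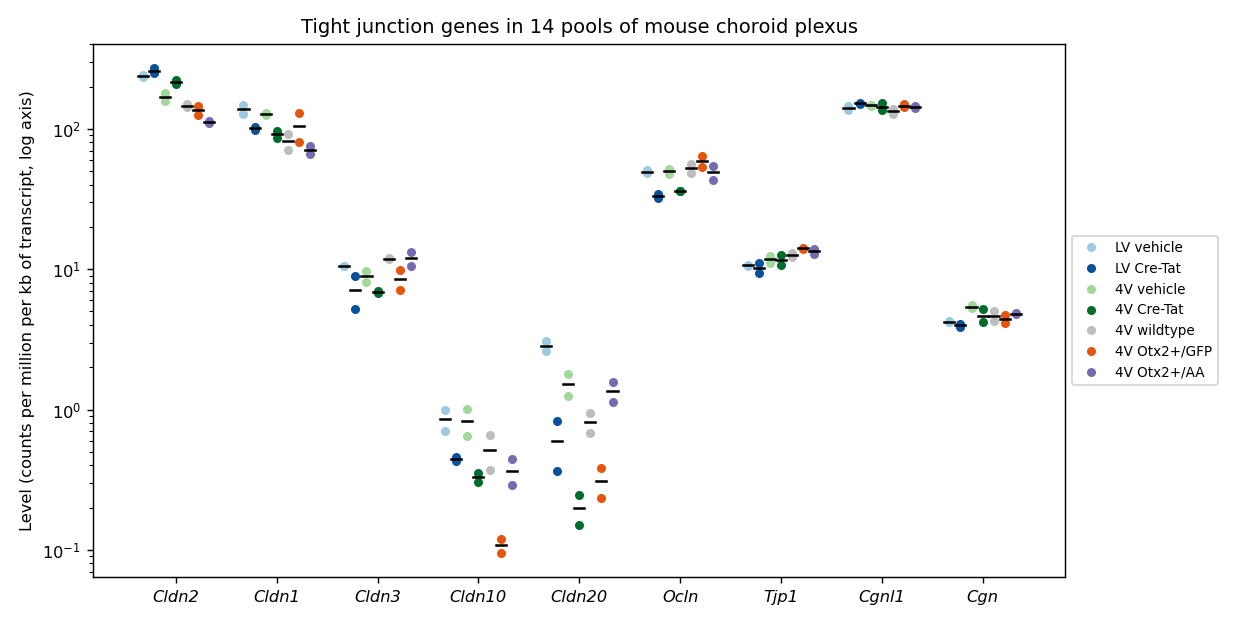
Level of each member (CPM per kb of transcript, log axis) in the 14 pools. Points are pools, coloured by group, and short lines are means of 2 pools. Cldn2, Cgnl1 and Cldn1 lead in each group, and Cldn10 and Cldn20 lie lowest.

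The first comparison set LV pools labelled Cre-Tat against LV pools labelled vehicle. Values here are normalized counts, which are counts divided by library size scaled with edgeR's TMM factors. Of the 9 members, 1 passed an adjusted p of 0.05 and was lower (Cldn20). Among all genes, 486 of 15002 passed (3.24%), and 1.03% of genes tested were lower. The members' median log2 fold change was -0.44, against 0.00 for all genes, and 7 of 9 were below 0. The 2 above 0 were Cldn2 and Cgnl1. In the same pools 5 of 10 markers of ChP epithelium were lower and none was higher, and in bulk tissue fewer cells of a type and less RNA per cell cannot be told apart.

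Cldn20 had 43.9 and 37.1 normalized counts in the vehicle pools against 5.29 and 12.1 with the Cre-Tat label. Both Cre-Tat pools lay below both vehicle pools. The log2 fold change was -2.23 (SE 0.54, edgeR adjusted p = 0.0389). Raw counts were 42 and 34 against 6 and 12. The ratio of the summed counts, scaled by library size with TMM factors, was 0.209 (exact 95% interval 0.117 to 0.352, counting error only). The call did not hold without Cre-Tat pool A (adjusted p = 0.148), vehicle pool A (0.238) or vehicle pool B (0.0804), and held without Cre-Tat pool B (0.0295). Nor did it hold with total counts in place of TMM scaling (0.0714) or with counts summed over transcripts (0.0913). With files joined as attached, the log2 fold change was 0.81.

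Among the other claudins of the set, Cldn1 had 9016 and 10433 normalized counts in the LV vehicle pools against 7329 and 7057 with the Cre-Tat label. The groups did not overlap, but the log2 fold change of -0.44 (95% interval -0.78 to -0.09) did not pass (edgeR adjusted p = 0.203). Cldn2, the pore-forming claudin, had 15503 and 15932 against 16513 and 18227, a log2 fold change of 0.14 (-0.20 to 0.49). Cldn3, a sealing claudin, had 286 and 287 against 144 and 251, and its log2 fold change of -0.54 (-1.05 to -0.03) had an edgeR adjusted p of 0.305. Its Cre-Tat pools lay far apart, and without Cre-Tat pool B the log2 fold change was -0.98 (edgeR adjusted p = 0.0155). Cldn3 shares 40 exonic bases with the antisense gene Wbscr25, and the strand used for counting is not given in the sources used here. Cldn10, a claudin of ion-selective pores, had 32.4 and 45.8 against 21.2 and 20.1, with a log2 fold change of -0.91 (-1.86 to 0.03).

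Ocln had 4426 and 4254 normalized counts in LV vehicle pools, while the Cre-Tat pools had 3030.0 and 2889. The groups did not overlap and lay further apart than their SDs of 122 and 99.4. The log2 fold change was -0.55 (95% interval -0.89 to -0.22, edgeR adjusted p = 0.0770), outside the threshold. DESeq2 gave an adjusted p of 0.0126 for Ocln.

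The plaque genes lay close to 0 in LV ChP. Tjp1 had 1632 and 1614 normalized counts against 1697 and 1457 (log2 fold change -0.04, 95% interval -0.38 to 0.30). Cgn had 451 and 457 against 421 and 448 (-0.06, -0.42 to 0.29). Cgnl1 had 19945 and 21422 against 22637 and 22360.5 (0.12, -0.22 to 0.46). Pools of both groups overlapped for Tjp1 and did not for Cgn and Cgnl1, and the adjusted p values of the 3 genes were 0.859 to 0.965 in edgeR.

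The second comparison set 4V pools labelled Cre-Tat against 4V pools labelled vehicle. Of the 9 members, 3 passed, and each was lower (Cldn20, Cldn1 and Ocln). Among all genes, 1554 of 14550 passed (10.7%), and 4.98% of genes tested were lower. The members' median log2 fold change was -0.37 against 0.01 for all genes, and 7 of 9 were below 0. All 10 markers of ChP epithelium were lower in these pools too, and their part in the members' values was not tested.

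Cldn20 had 18.6 and 12.9 normalized counts in the 4V vehicle pools against 2.57 and 1.57 after Cre-Tat by label. Its log2 fold change was -2.89 (SE 0.70, edgeR adjusted p = 0.0117). The raw counts were 16 and 9 against 3 and 2, a ratio of 0.127 (exact 95% interval 0.0381 to 0.339, counting error only). Both Cre-Tat pools held 3 counts or fewer, so the size of the difference is poorly known. DESeq2 gave an adjusted p of 0.0651. Cldn20 is a single-exon gene that lies inside Tfb1m, on the opposite strand, and shares no exonic bases with it. Reads from introns of Tfb1m could not be told apart if strand was not used in counting. Tfb1m, a mitochondrial methyltransferase, had log2 fold changes of 0.17 (LV) and -0.02 (4V) (edgeR adjusted p = 0.840 and 0.978). These values are those of its transcript and do not measure its intronic reads.

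Cldn1 had 6402 and 6589.6 normalized counts in 4V vehicle pools against 4444 and 4921 in the Cre-Tat pools, with no overlap. The log2 fold change was -0.47 (SE 0.14, edgeR adjusted p = 0.0363), a change of -27.9%. Ocln had 3325 and 3001 against 2332 and 2282, again with no overlap. Its log2 fold change was -0.46 (SE 0.13, edgeR adjusted p = 0.0345), a change of -27.1%. Both calls lie close to the threshold. Cldn1 was still called without Cre-Tat pool B (adjusted p = 0.0215), and not without Cre-Tat pool A (0.130), vehicle pool A (0.211) or vehicle pool B (0.231). Ocln was still called without Cre-Tat pool A (0.0475), and not without Cre-Tat pool B (0.0736), vehicle pool A (0.385) or vehicle pool B (0.0991). Cldn20 was called without vehicle pool B (0.0299), and not without Cre-Tat pool A (0.0525) or Cre-Tat pool B (0.114). With total counts in place of TMM scaling, the median of all genes moved from 0.01 to 0.15, and neither Cldn1 (log2 fold change -0.33, adjusted p = 0.191) nor Ocln (-0.31, adjusted p = 0.203) passed. Nor did they with all groups of the run in 1 fit (adjusted p = 0.0586 and 0.0509), and with counts summed over transcripts Ocln had 0.0697. With files joined as attached, the log2 fold changes were 1.60 for Cldn20, 0.16 for Cldn1 and -0.01 for Ocln.

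Cldn2 had 8650.3 and 7495 normalized counts in 4V vehicle pools, while the Cre-Tat pools had 10130.2 and 10669. The pools did not overlap and the log2 fold change was 0.37 (95% interval 0.05 to 0.68), but it did not pass (edgeR adjusted p = 0.142). With total counts it passed (0.51, adjusted p = 0.0340). Cldn3 had 194 and 159 against 141 and 134 (log2 fold change -0.37, -0.77 to 0.03, adjusted p = 0.273 in edgeR). Cldn10 had 33.7 and 21.5 against 12 and 10.2 (-1.33, -2.30 to -0.36, adjusted p = 0.0792 in edgeR). The plaque genes again lay near 0, with 1229 and 1368 against 1194 and 1403 for Tjp1 (0.00, 95% interval -0.29 to 0.29), 415 and 429 against 329 and 403 for Cgn (-0.20, -0.53 to 0.12), and 15928 and 15312 against 14581 and 16091 for Cgnl1 (-0.03, -0.35 to 0.30).

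**Figure D2:**
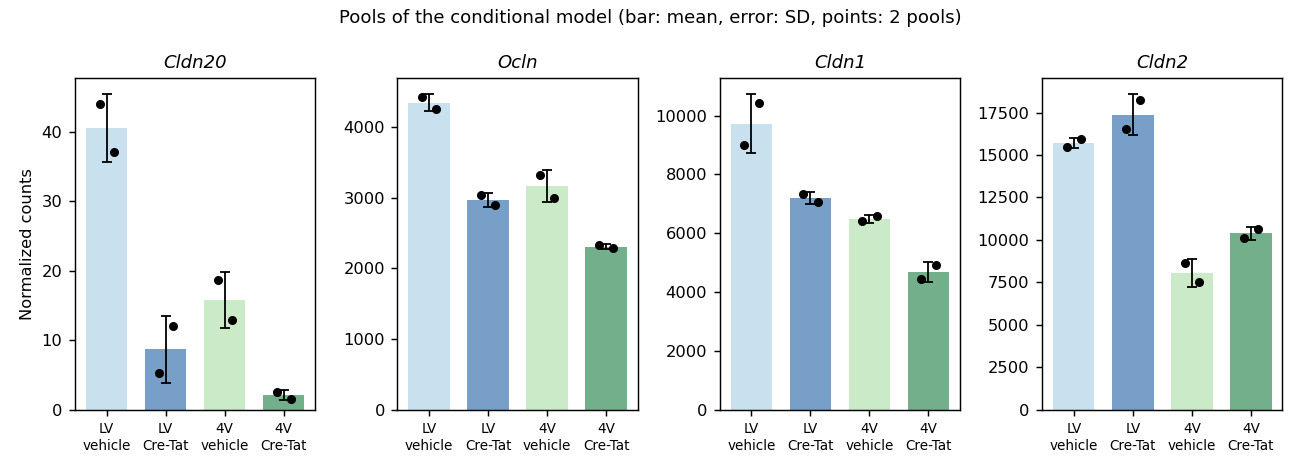
Normalized counts of Cldn20, Ocln, Cldn1 and Cldn2 in the pools of the conditional model (bars, means; error bars, SD; points, 2 pools per group). Values were normalized within each ventricle. In Cldn20, Ocln and Cldn1 the Cre-Tat points lie below the vehicle points in both ventricles, and in Cldn2 they lie above them.

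The response of the members did not differ detectably between ventricles. In the test of treatment by ventricle over 8 pools, 0 of 9 members passed in edgeR, against 1 of 15565 genes (0.00642%) and 416 genes at an unadjusted p under 0.05. DESeq2 also called 0 members, as did edgeR with the pool letter as a block. The difference of the log2 fold changes, 4V minus LV, was -0.67 for Cldn20 (95% interval -2.57 to 1.23), -0.04 for Cldn1 (-0.47 to 0.39), 0.09 for Ocln (-0.31 to 0.50) and 0.22 for Cldn2 (-0.22 to 0.65).

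Cldn2 and Cldn1 have opposite roles, as a pore and as a seal, and their ratio within a pool needs no scaling between pools. This ratio was chosen after the values were seen. Per kb of transcript, the ratio of Cldn2 to Cldn1 was 1.83 and 1.63 in LV vehicle pools against 2.40 and 2.76 in LV Cre-Tat pools. In 4V ChP the vehicle pools had 1.44 and 1.21, against 2.43 and 2.31 in Cre-Tat pools. The groups did not overlap in either ventricle. The constitutive model gave 1.63 and 2.02 in wildtype pools, 1.13 and 1.58 in pools labelled Otx2+/GFP and 1.46 and 1.71 in pools labelled Otx2+/AA. These ratios were lower in both Otx2+/GFP pools than in both wildtype pools, and Otx2+/AA overlapped with wildtype. No test is given. The ratio of Ocln to Tjp1 was 4.72 and 4.59 in LV vehicle pools against 3.11 and 3.45 in those labelled Cre-Tat, and 4.71 and 3.82 against 3.40 and 2.83 in 4V ChP. It was 4.35 and 3.95 in wildtype pools, 4.59 and 3.76 in Otx2+/GFP, and 3.90 and 3.34 in Otx2+/AA, with Otx2+/GFP overlapping wildtype and Otx2+/AA lying below it. Tjp1 had log2 fold changes with Cre-Tat of -0.04 in LV and 0.00 in 4V ChP. In those pools the ratio of Ocln to Tjp1 thus mostly restates the values of Ocln. The ratio of Cgnl1 to Cgn was 26.2 to 39.5 over the 14 pools.

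**Figure D3:**
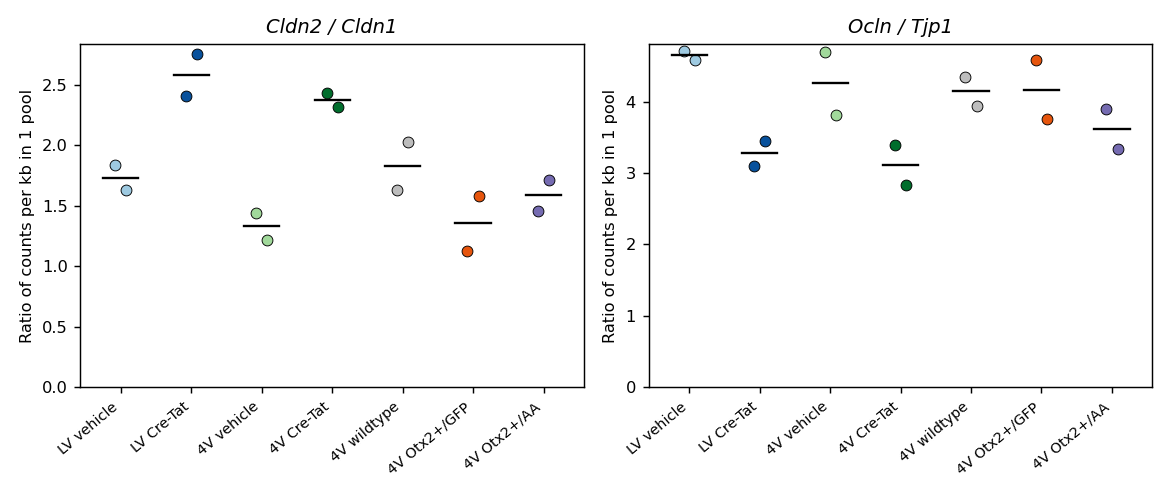
Ratio of Cldn2 to Cldn1 and of Ocln to Tjp1 in each pool, from counts per kb of transcript. Points are pools and lines are means of 2 pools. Cldn2 to Cldn1 is highest in the Cre-Tat pools (2.31 to 2.76), and Ocln to Tjp1 is lower in Cre-Tat than in vehicle pools of the same ventricle.

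Pools labelled Otx2+/GFP were compared with wildtype pools of the same run. Of 8 members tested, 0 passed in edgeR, against 515 of 14573 genes (3.53%) and 2700 genes at an unadjusted p under 0.05, and DESeq2 called 0. Cldn20 fell under the filter on low counts, with 12 and 8 counts in wildtype pools and 5 and 3 in pools labelled Otx2+/GFP. The ratio of these counts was 0.377 (exact 95% interval 0.144 to 0.893, counting error only), and without the filter the log2 fold change was -1.38 (edgeR adjusted p = 0.492). Cldn10 had 26.7 and 15 normalized counts in wildtype pools and 3.86 and 4.88 in those labelled Otx2+/GFP, a log2 fold change of -2.23 (95% interval -3.56 to -0.90, edgeR adjusted p = 0.0836). The raw counts were 27 and 14 against 4 and 5, with a ratio of 0.207 (0.0884 to 0.432, counting error only).

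Cldn1 had 5649.6 and 4389 normalized counts in wildtype pools and 8005 and 4954 in pools labelled Otx2+/GFP. The groups overlapped, and the log2 fold change was 0.37 (SE 0.22, edgeR adjusted p = 0.427). Pool A of Otx2+/GFP decided this value, which was -0.02 without it, and without pool B 0.67 (edgeR adjusted p = 0.0275). For Cldn10, the call was made without wildtype pool B (-2.59, edgeR adjusted p = 0.0278). Ocln had 4319 and 3742 against 4949 and 4119 (log2 fold change 0.17, 95% interval -0.14 to 0.48). Cldn2 had 8627 and 8326 against 8466 and 7323 (-0.10, -0.39 to 0.18), and Cldn3 had 281 and 287 against 171 and 238 (-0.47, -0.90 to -0.05, edgeR adjusted p = 0.223). Tjp1 had 1728 and 1649 against 1877 and 1907 (0.16, -0.08 to 0.41), Cgn 403 and 478 against 390.1 and 444 (-0.08, -0.42 to 0.26), and Cgnl1 16432 and 17820.1 against 19213 and 18267 (0.13, -0.15 to 0.41).

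The difference between the models in 4V ChP was tested directly, as the log2 fold change of Cre-Tat against vehicle minus that of Otx2+/GFP against wildtype. Of 9 members 0 passed in edgeR, against 252 of 15327 genes (1.64%) and 1987 at an unadjusted p under 0.05, and DESeq2 called 0. The largest differences among the well counted members were -0.85 for Cldn1 (95% interval -1.45 to -0.26, edgeR adjusted p = 0.177) and -0.64 for Ocln (-1.04 to -0.23, edgeR adjusted p = 0.137). Cldn1 passed without Otx2+/GFP pool B (-1.16, edgeR adjusted p = 0.0144) and without the filter on low counts (adjusted p = 0.00165). Model, strain and sequencing run cannot be told apart here.

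Pools labelled Otx2+/AA, compared with the same wildtype pools, gave 0 of 9 members past the threshold in edgeR and in DESeq2, against 50 of 14494 genes (0.345%) and 1292 at an unadjusted p under 0.05. Cldn2 had 8812 and 8488 normalized counts in wildtype pools and 6461 and 6717 in those labelled Otx2+/AA. The groups did not overlap, and the log2 fold change was -0.39 (95% interval -0.66 to -0.12, edgeR adjusted p = 0.279). Cldn20 had 12.1 and 8.76 against 14.5 and 20.1 (0.71, -0.42 to 1.84). Cldn10 had 27.3 and 15.3 against 18.2 and 12 (-0.49, -1.55 to 0.56). The other 6 members had log2 fold changes of -0.20 (Cldn1) to 0.10 (Tjp1). Between pools labelled Otx2+/GFP and Otx2+/AA, 0 of 9 members passed in edgeR and DESeq2, against 393 of 14578 genes (2.7%) and 2092 at an unadjusted p under 0.05. Cldn20 had 5.05 and 3.08 normalized counts against 15 and 20.7 there (-2.09, -3.42 to -0.77, edgeR adjusted p = 0.11).

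**Figure D4:**
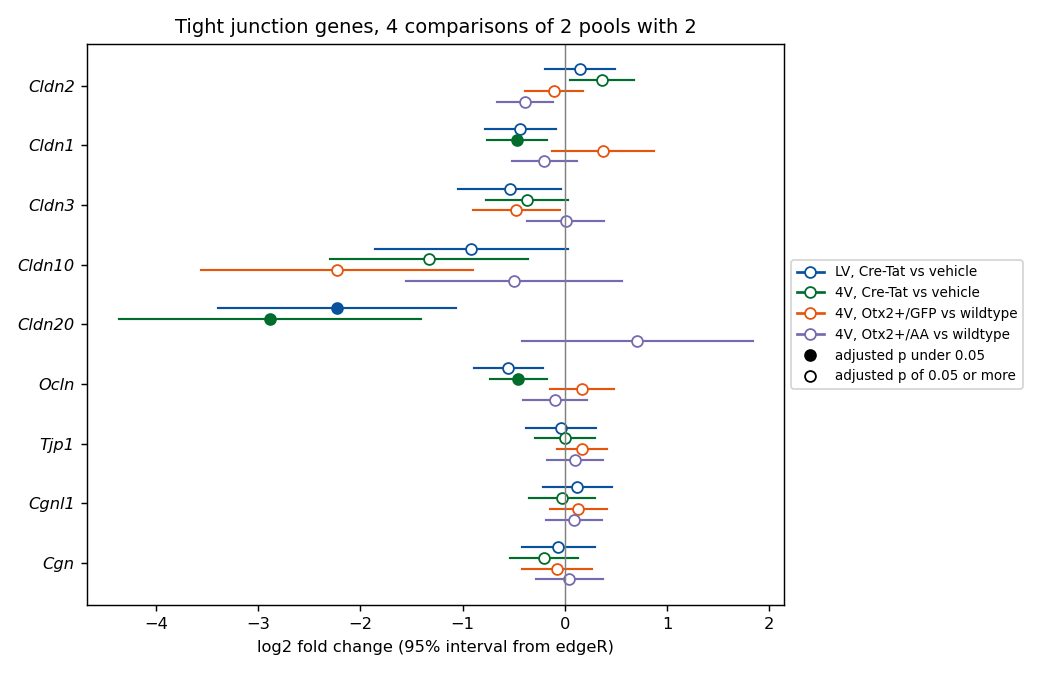
Log2 fold change of each member in 4 comparisons of 2 pools with 2, with the 95% interval from edgeR. Filled points have an adjusted p under 0.05. Cldn20 is filled in both ventricles of the conditional model, Cldn1 and Ocln in 4V ChP only, and Tjp1, Cgnl1 and Cgn lie between -0.20 and 0.16. Cldn20 is absent from the Otx2+/GFP comparison, where it fell under the filter.

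Between ventricles, in pools labelled vehicle, 1 of 9 members passed (Cldn2, higher in LV ChP), against 1083 of 14561 genes (7.44%), and 3.46% of genes tested were higher in LV ChP. Cldn2 had 11702 and 11714 normalized counts in LV pools, against 9055 and 7855 in 4V pools. The pools did not overlap, and the log2 fold change was 0.47 (SE 0.12, edgeR adjusted p = 0.0361), a level 38.5% higher. The call did not hold without LV pool B (adjusted p = 0.0942) or 4V pool B (0.220), nor with total counts (log2 fold change 0.28, adjusted p = 0.129), which moved the median of all genes from 0.01 to -0.19. It was also lost with counts summed over transcripts (adjusted p = 0.0545) and with all groups of the run in 1 fit (0.0806). With files joined as attached, the log2 fold change of Cldn2 was -0.02. With total counts Cgn passed in place of Cldn2 (-0.58, adjusted p = 0.0289). By TMM, Cgn had 340.4 and 336 normalized counts in LV against 435 and 449.7 in 4V pools (-0.39, 95% interval -0.68 to -0.10, edgeR adjusted p = 0.101). With the pool letter as a block, Cgn passed (edgeR adjusted p = 0.0352), but no source states that pools of the same letter hold the same mice. Cldn20 had 33.2 and 27.3 in LV against 19.5 and 13.5 in 4V pools (0.85, -0.09 to 1.8, edgeR adjusted p = 0.272). Cldn1, Cldn3, Cldn10, Ocln, Tjp1 and Cgnl1 had log2 fold changes of -0.17 (Tjp1) to 0.20 (Cldn3). The 4V vehicle pools enter this comparison and that of 4V Cre-Tat against vehicle.

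Other genes of the junction were read from 3 lists. Of 27 further claudins, 9 had no count in any pool. Those counted at least 10 times in every pool were Cldn12, Cldn9, Cldn11 and the endothelial Cldn5. Of the 4 to 7 claudins tested per comparison, Cldn9 was lower in pools labelled Otx2+/GFP (294 and 311 normalized counts against 510.2 and 438 in wildtype, log2 fold change -0.65, edgeR adjusted p = 0.0497). Its call did not hold without Otx2+/GFP pool A (adjusted p = 0.140), Otx2+/GFP pool B (0.0536) or wildtype pool A (0.136). Cldn9 was also lower in LV than in 4V vehicle pools (-0.88, edgeR adjusted p = 0.0195), where Cldn12 was higher (0.58, edgeR adjusted p = 0.00905). The former did not pass without 4V pool A (adjusted p = 0.210), nor Cldn12 without 4V pool A (0.0679) or pool B (0.0623). Against Otx2+/AA, Otx2+/GFP had less Cldn9 (-1.24, edgeR adjusted p = 0.00103) and more Cldn19, a gene named after its values were seen, which was counted 0 to 29 times in the 14 pools.

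Of 60 partner genes of the tight junction (further membrane proteins, scaffolds, polarity proteins and regulators), 0 were higher and 3 lower in LV pools labelled Cre-Tat, of 57 tested, with a median log2 fold change of -0.07. In 4V ChP, 1 was higher and 7 lower of 58 tested, with a median of -0.02. These counts stand beside 1.03% and 4.98% of all genes that were lower. The other MARVEL-domain genes on the list, relatives of Ocln, were lower in 4V ChP. Marveld3 had 90.9 and 73.6 normalized counts against 179 and 188 (log2 fold change -1.16, SE 0.21, edgeR adjusted p = 0.00112), and in LV ChP 99.6 and 99.7 against 287 and 215 (-1.33, SE 0.22, edgeR adjusted p = 0.00449). Marveld1 had a log2 fold change of -0.63 in 4V ChP (edgeR adjusted p = 0.00826), and Marveld2 (tricellulin, which seals the corners between cells) had -0.54 (edgeR adjusted p = 0.0240). Marveld1 did not pass without vehicle pool B (adjusted p = 0.0948), nor Marveld2 without Cre-Tat pool B (0.0519), vehicle pool A (0.186) or vehicle pool B (0.0743). With files joined as attached, the log2 fold changes in 4V ChP were 0.50 for Marveld1 and 0.18 for Marveld2, and in LV ChP 0.055 for Marveld3.

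Crb3, an apical polarity protein, had 181 and 178 normalized counts in 4V pools labelled Cre-Tat against 464 and 399 in vehicle pools, a log2 fold change of -1.27 (SE 0.17, edgeR adjusted p = 6.33e-05). In LV ChP it had 274 and 335 against 506 and 478 (-0.69, edgeR adjusted p = 0.0474). Tbcd, a tubulin cofactor that also acts at junctions, was lower in both ventricles (-0.94 and -0.70, edgeR adjusted p = 0.000139 and 0.0233) and in pools labelled Otx2+/GFP (-0.72, edgeR adjusted p = 0.00915). The adhesion proteins Jam3 (-0.59, edgeR adjusted p = 0.0131) and Cxadr (-0.47, edgeR adjusted p = 0.0312) were lower in 4V pools labelled Cre-Tat, and Jam2, an adhesion protein also made by endothelium, was higher (0.56, edgeR adjusted p = 0.0361). Of 16 adherens junction genes, P-cadherin (Cdh3) was lower there (-0.73, edgeR adjusted p = 0.00225). Of the 9 genes named in 4V ChP, Crb3, Marveld3, Tbcd and Cdh3 passed with any 1 pool left out. Files joined as attached mix runs of different groups. So joined, Crb3 had 0.16, Tbcd 0.22, Cxadr 0.02 and Jam2 -0.20 in 4V ChP, and Tbcd 0.02 in LV ChP. Jam3 did not pass without vehicle pool A (adjusted p = 0.165), nor Cxadr without vehicle pool A (0.0539) or B (0.352), nor Jam2 without Cre-Tat pool B (0.0583), vehicle pool A (0.270) or vehicle pool B (0.0690). In LV ChP Crb3 did not pass without Cre-Tat pool A (0.128), vehicle pool A (0.235) or vehicle pool B (0.109), nor Tbcd without vehicle pool A (0.195) or B (0.147).

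In pools labelled Otx2+/GFP, 4 partner genes were higher and 2 lower of 58 tested, against 3.53% of all genes called in either direction. Jam3 had 1158 and 1157 normalized counts against 574 and 747 in wildtype pools (log2 fold change 0.81, edgeR adjusted p = 0.0187), and Ybx3, a transcription regulator that binds Tjp1, had 682 and 691 against 1464 and 1362 (-1.04, edgeR adjusted p = 0.00184). Ildr2, a protein of the corners between cells, and Amot, an actin-linked polarity protein, were higher (0.66 each, edgeR adjusted p = 0.0314 and 0.0315). E-cadherin (Cdh1) was higher in Otx2+/GFP (1.33, edgeR adjusted p = 0.0174) and in Otx2+/AA (1.07, edgeR adjusted p = 0.0277), where Ildr2 was also higher (0.79, edgeR adjusted p = 0.0369). These 2 comparisons share the wildtype pools. The symbol Igsf5 is carried by 2 Ensembl genes, and 1 of them, ENSMUSG00000117081, was the remaining partner that was higher (0.73, edgeR adjusted p = 0.0224). Jam3, Ybx3, Tbcd and Cdh1 passed in Otx2+/GFP with any 1 pool left out. Ildr2 did not without Otx2+/GFP pool A (adjusted p = 0.0671) or wildtype pool A (0.0732), nor Amot (0.0628 and 0.0973). In Otx2+/AA, Cdh1 did not pass without Otx2+/AA pool A (0.0790), nor Ildr2 without Otx2+/AA pool A (0.0949) or wildtype pool A (0.0915).

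Between ventricles, Cdh1 was lower in LV than in 4V vehicle pools (34.0 and 42.5 normalized counts against 146 and 146, log2 fold change -1.93, edgeR adjusted p = 0.000339), as were Jam3 (-0.94, edgeR adjusted p = 0.000996), the adherens junction protein Plekha7 (-0.61, edgeR adjusted p = 0.0177), Cdh3 (-0.48, edgeR adjusted p = 0.0370) and the scaffold Afdn (-0.50, edgeR adjusted p = 0.0275). Ildr2 was higher (0.56, edgeR adjusted p = 0.0131). Of the genes with the symbol Igsf5, 1 was higher (1.23) and 1 lower (-0.65). With files joined as attached, the log2 fold changes were 0.46 for Cdh1, 0.20 for Jam3, 0.50 for Cldn9, 0.10 for Cdh3 and -0.04 for Ildr2. Cdh1 is also on the list of arachnoid markers, of which 1 of 6 was higher and 2 lower in LV ChP (median -1.02), and their part in these values was not tested. Cdh1 and Jam3 passed with any 1 pool left out, and Plekha7 did not without 4V pool B (adjusted p = 0.203). Ildr2 did not without LV pool B (0.0673) or 4V pool B (0.12), Afdn without LV pool B (0.18), 4V pool A (0.0881) or 4V pool B (0.167), and Cdh3 without LV pool B (0.156), 4V pool A (0.250) or 4V pool B (0.0628). Between Otx2+/GFP and Otx2+/AA, Marveld2 and Jam3 were higher (1.06 and 0.90, edgeR adjusted p = 0.00855 and 0.00585) and Cdh3 and Ybx3 lower (-0.84 and -0.70, edgeR adjusted p = 0.0282 and 0.0161). Among these, Cdh3 alone did not pass without Otx2+/GFP pool A (0.0980).

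**Figure D5:**
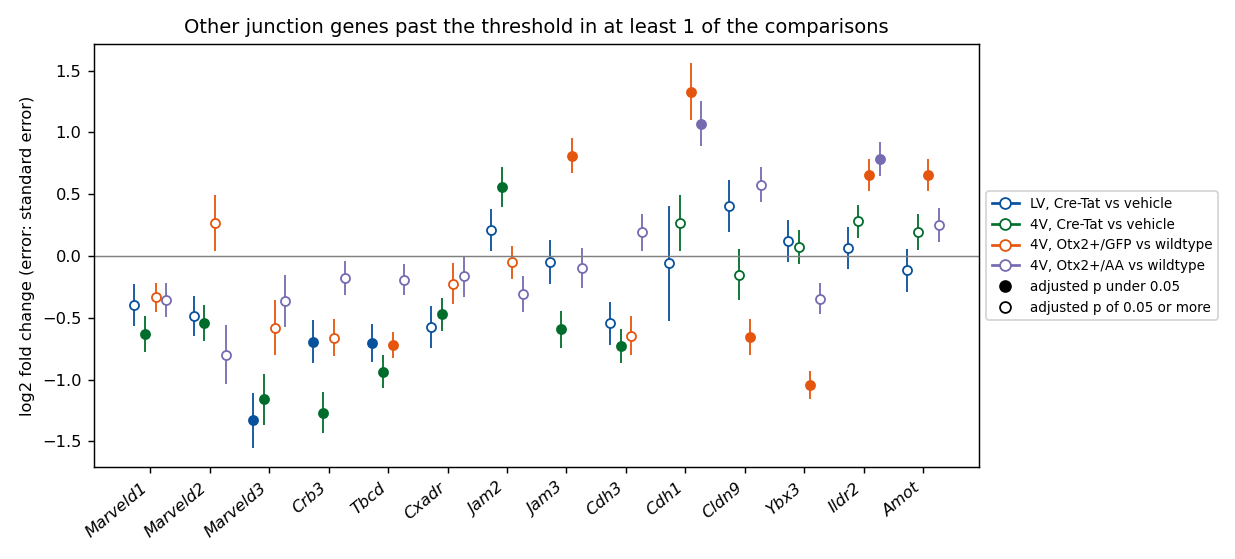
Log2 fold change of 14 other junction genes in 4 comparisons of 2 pools with 2 (error bars, SE; filled points, adjusted p under 0.05). Each gene passed in at least 1 comparison, and Igsf5 is left out because 2 genes carry its symbol. Marveld3, Crb3 and Tbcd are low in both ventricles of the conditional model, and Jam3 lies below 0 in 4V Cre-Tat pools and above 0 in Otx2+/GFP.

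Markers of the cells in the tissue moved with the treatment label. The 10 markers of ChP epithelium, in which tight junctions lie, were at 0 in no pool. Of these, 5 were lower in LV and 10 in 4V pools labelled Cre-Tat, 3 in pools labelled Otx2+/GFP and 0 in those labelled Otx2+/AA. Ttr and Enpp2 had median counts of 2302961.5 and 698550 over the pools, and the next marker, Kl, had 40912.5. Sums over the 10 markers thus follow mostly Ttr, which the paper calls a known direct target of OTX2. Aqp1, which the paper lists as lower in both models, is among the markers too. Neither the sums nor the counts of markers called measure the amount of epithelium alone. The summed level of the 10 markers was 2704500 and 3616690 normalized counts in LV Cre-Tat pools against 4869020 and 5074920 in vehicle pools, and 1550490 and 1351970 against 3437060 and 2877520 in 4V ChP. In Otx2+/GFP it was 2401310 and 2536240 against 3802550 and 3619290 in wildtype. There 2 of 6 fibroblast markers were higher (median log2 fold change 0.58, sums of 21196 and 19094 against 15159 and 13860.1), as were 2 of 5 astrocyte markers (0.78, sums of 1928 and 2694 against 1173 and 1251). So were 1 of 7 leukocyte and 1 of 6 arachnoid markers, and no marker of the remaining classes passed. In Otx2+/AA 1 arachnoid marker was higher and 1 lower, and no other marker passed. The part of these markers in the values of the constitutive model was not tested.

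Among all genes, 331 of 15002 in LV and 829 of 14550 in 4V ChP were higher in Cre-Tat pools. Of 7 leukocyte markers tested, 2 in LV and 5 in 4V ChP were higher. Their median log2 fold changes were 0.73 and 0.88. Their summed level was 2625 and 2145 against 1312 and 1496 in LV ChP, and 1798 and 1289.9 against 772 and 752 in 4V ChP. Cd3e, a T cell marker, was at 0 in 5 of the 14 pools. Of 5 ependymal markers tested, 2 were higher in each ventricle, with sums of 5083 and 6491 against 3439 and 3600.1 in LV ChP and 4676 and 4369 against 2872 and 2196 in 4V ChP. Of 10 endothelial markers, 0 in LV and 1 in 4V ChP were higher in Cre-Tat pools. Between vehicle pools, where Cldn2 was higher in LV ChP, 4 endothelial markers were higher too (4215 and 4749.6 against 2809 and 3052) and 0 epithelial ones. There 1 fibroblast, 1 leukocyte, 1 oligodendrocyte, 1 astrocyte and 1 arachnoid marker were higher and 2 arachnoid markers lower, and no mural, neuronal or ependymal marker passed. The part of these markers in the value of Cldn2 was not tested.

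Of 5 astrocyte markers, 2 were higher in each ventricle. Of the neuronal markers tested, 2 of 7 were higher in LV and 1 of 3 lower in 4V ChP. Among fibroblast markers 1 was higher and 1 lower in each ventricle, among arachnoid markers 1 was higher in LV and 2 lower in 4V ChP, and no mural or oligodendrocyte marker passed. The part of these markers in the values of Cldn20, Cldn1 and Ocln was not tested. Tjp1, Cgnl1 and Cgn lay between -0.20 and 0.12 on the log2 scale in the same pools.

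The genes whose levels over the 14 pools were most like each member, among 10180 genes, or 10181 for Cldn10 and Cldn20, with a mean of at least 100 counts, are given by Pearson's r of log2 values centred within each sequencing run. The pools share a library design and treatment groups, so these values are descriptions. Ocln was nearest to Scd1 and Fzd7 (r = 0.96 each), Cldn1 to Camsap2 (0.96) and Mum1l1 (0.94), and Cldn2 to Sf3a1 (0.90) and Cox8b (0.89). Cldn20 was nearest to Pcp4l1 and Cyb5rl (0.95 each), Cldn10 to Thumpd3 (0.95) and Tuft1 (0.94), and Cldn3 to Zdhhc12 (0.94) and Lgals1 (0.93). Tjp1 was nearest to Spag9 (0.93) and Ctnnd1 (0.92), Cgn to Ptpru and Cul7 (0.91 each), and Cgnl1 to Akap2 (0.78) and Pakap (0.76). The lower r of Cgnl1 stands beside its narrow range of 128 to 154 CPM per kb over all 14 pools.

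In GRCm38, Cldn1 lies on chromosome 16 (26356642 to 26371841, minus strand), Cldn2 on X (139800828 to 139811386, plus), Cldn3 on 5 (134986214 to 134987472, plus), Cldn10 on 14 (118787908 to 118875489, plus) and Cldn20 on 17 (3532554 to 3533213, plus). Ocln lies on 13 (100496507 to 100552718, minus), Tjp1 on 7 (65296165 to 65527781, minus), Cgn on 3 (94760069 to 94786492, minus) and Cgnl1 on 9 (71626509 to 71771602, minus). The transcripts counted were 660 (Cldn20) to 7049 (Tjp1) bases long.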

How the data were processed

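RNA-seq of ChP was analysed in 14 pools, 2 for each of 7 groups, as grouped by the labels. Per the labels, rRNA was depleted with Ribo-Zero and libraries were strand-specific (ScriptSeq V2, reads of 50 bases), while the paper states PolyA+ selection. The deposited files hold raw read counts per Ensembl transcript, and the authors' processing notes name bcl2fastq 1.8.4, Bowtie 0.12.9, SAMtools, HTSeq 0.5.3, DESeq 1.8.3 and mm10. The strand setting of the counting is not given in the sources used here, and neither is a rule for reads shared by transcripts of a gene. Cgn-201 and Cgn-202 had equal counts in every pool, such as 384 and 384 in 4V Cre-Tat pool A. Shared reads thus appear to be counted for each transcript, and sums over transcripts can hold a read more than once.

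Symbols came from GENCODE vM21, which matched 82807 of 95533 transcripts and 89.5% of counts. Each gene is its transcript with the most counts, and the 2 technical runs of a pool were summed by library number. Each comparison was fitted on its 4 pools in edgeR 4.0.16 (R 4.3.3, filterByExpr, TMM, quasi-likelihood test), with interactions over 8 pools and Benjamini-Hochberg adjustment over all genes tested, at a threshold of 0.05. The p values measure the spread between pools. For the constitutive groups, the sources used here do not state whether the 2 pools of a group held different mice. Spread between mice may thus not be covered there. Scripts were tested on simulated data first. Intervals of low counts are exact and cover counting error only.

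Alternatives were DESeq2 1.42.0, other scalings and filters, counts summed over transcripts, 1 fit for all groups of a run, the pool letter as a block, files joined as attached, and each pool left out. The members and lists were chosen with earlier results of these data known. Beside the members and Otx2, the text names junction genes that passed with a mean of at least 50 normalized counts (at most the 12 largest changes per comparison), and the 2 genes most like each member. Tfb1m was added because Cldn20 lies within it. Promoter sequences are RefSeq's. The level of 1 leukocyte marker is not reported here.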

Additional observations from a re-analysis of the deposited data

Results flagged for a closer look

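For 2 genes of the junction lists, neither of them a member, the difference between the models in 4V ChP itself passed the test (edgeR, 252 of 15327 genes called). The log2 fold change of Cre-Tat against vehicle minus that of Otx2+/GFP against wildtype was -1.42 for Jam3 (SE 0.20, edgeR adjusted p = 0.0037) and 1.10 for Ybx3 (SE 0.17, edgeR adjusted p = 0.00494). Jam3 had -0.59 in the conditional and 0.81 in the constitutive model, and Ybx3 had 0.07 and -1.04. Model, strain and sequencing run cannot be told apart in this difference.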

How the results depend on the processing

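Fold changes kept their direction and side of the threshold in 1108 of their values under alternatives, lost the call in 99, gained it in 25 and reversed in 68. The cause was not tested. Depth limits Cldn10 and Cldn20, counted at most 42 times in a pool. Where 1 pool is left out, the lone pool of its group is assumed to vary like the others. Of the 68 reversals, 30 came with files as attached, where runs of different groups are mixed, and 8 with total counts.

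Members called in LV Cre-Tat against vehicle numbered 2 with DESeq2, without a filter, with 1 fit for all groups or with crossed letters, 0 with total counts or summed transcripts, and 3 with files as attached. In 4V Cre-Tat against vehicle they numbered 5 with the replicate block, 1 with 1 fit and 6 as attached. In Otx2+/GFP they numbered 3 with the block. Between ventricles they numbered 2 with the block, 0 with summed transcripts or 1 fit, and 5 as attached. In the test by ventricle 4 were called as attached, and by model 1 without a filter and 5 as attached.

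Genes called in LV Cre-Tat numbered 874 without a filter, 6709 as attached and 1012 with crossed letters. In 4V Cre-Tat they numbered 3114 with the block and 8742 as attached, and in Otx2+/GFP 2539 with the block. In Otx2+/AA they numbered 122 with DESeq2, 390 without a filter, 549 with the block, 22 with summed transcripts and 18 with 1 fit. Otx2+/GFP against Otx2+/AA gave 248 with summed transcripts. Between ventricles they numbered 1840 without a filter, 2288 with the block, 717 with 1 fit and 4718 as attached. The test by ventricle gave 5 with DESeq2, 31 without a filter, 0 with a mean above 10 or summed transcripts, 2 with the block and 5258 as attached. The test by model gave 627, 166 and 4688 without a filter, with summed transcripts and as attached.

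With total counts, log2 fold changes reversed for Tjp1 (0.13) and Cgn (0.10) in LV Cre-Tat, Cgnl1 (0.11) in 4V Cre-Tat, Ocln (0.020) in Otx2+/AA, Tjp1 (-0.010) and Cgnl1 (-0.042) in Otx2+/GFP against Otx2+/AA, and Cldn1 (-0.11) and Otx2 (-0.064) between ventricles. Tjp1 in 4V Cre-Tat was -0.0028 with DESeq2, -0.0027 with its size factors, -0.0026 with the block and -0.0042 with 1 fit. Without a filter Cldn10 between ventricles was 0.0090. With summed transcripts Otx2 in Otx2+/AA was -0.011, and between ventricles Cldn10 was 0.11 and Ocln 0.0034.

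With files as attached, LV Cre-Tat gave 0.14 for Cldn1, 0.81 for Cldn20, 0.055 for Marveld3, 0.020 for Tbcd and -0.013 for Otx2. In 4V Cre-Tat Cldn1 was 0.16, Cldn3 0.41, Cldn10 0.70, Cldn20 1.60, Tjp1 -0.35, Crb3 0.16, Tbcd 0.22, Marveld1 0.50, Jam2 -0.20, Marveld2 0.18, Cxadr 0.022 and Otx2 -0.29. Between ventricles Cldn1 was -0.072, Cldn2 -0.016, Cldn10 0.57, Ocln 0.11, Cdh1 0.46, Jam3 0.20, Cldn9 0.50, Ildr2 -0.042, Cdh3 0.10 and Otx2 -0.11. In the test by ventricle Cldn1 was 0.022 and Cldn20 0.79, and by model Cldn20 was 2.97.

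With each pool left out in turn, genes called ranged from 321 to 737 in LV Cre-Tat, 905 to 1665 in 4V Cre-Tat, 402 to 881 in Otx2+/GFP, 35 to 382 in Otx2+/AA, 403 to 790 in Otx2+/GFP against Otx2+/AA, 400 to 1968 between ventricles, 0 to 3 in the test by ventricle and 80 to 246 by model. Members called ranged from 0 to 2 in LV Cre-Tat and 0 to 1 in 4V Cre-Tat, Otx2+/GFP, Otx2+/GFP against Otx2+/AA, between ventricles and by model. Log2 fold changes ranged from -0.14 to 0.074 for Tjp1 in LV Cre-Tat, -0.12 to 0.11 for Tjp1 and -0.10 to 0.042 for Cgnl1 in 4V Cre-Tat, and -0.021 to 0.67 for Cldn1 and -0.19 to 0.038 for Cgn in Otx2+/GFP. In Otx2+/AA they were -0.073 to 0.17 for Cgn, -0.16 to 0.17 for Cldn3, -0.27 to 0.063 for Ocln and -0.064 to 0.19 for Otx2. They were -0.0017 to 0.067 for Cgnl1 in Otx2+/GFP against Otx2+/AA, -0.27 to 0.37 for Cldn10 and -0.10 to 0.045 for Ocln between ventricles, and -0.15 to 0.066 for Cldn1 and -1.17 to 0.0088 for Cldn20 by ventricle. Without 4V vehicle pool A, or with a mean above 10, Cldn20 was not tested in 4V Cre-Tat.

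LV and 4V pools share mice, but no source used here states that letters pair the pools. Deviations of pools with the same letter correlated at -0.19 in LV and 0.30 in 4V Cre-Tat, 0.42 in Otx2+/GFP, 0.09 in Otx2+/AA, 0.16 between these, and 0.14 between ventricles. The replicate block added Cldn10 and Cldn2 in 4V Cre-Tat, Cgn between ventricles, and Cldn1, Cldn3 and Cldn10 in Otx2+/GFP. The crossed block, added after seeing the data, called Cldn20 and Ocln in LV Cre-Tat. Total counts moved the genes called higher and lower from 331 and 155 to 396 and 48 in LV Cre-Tat, 829 and 725 to 1316 and 426 in 4V Cre-Tat, 25 and 25 to 28 and 10 in Otx2+/AA, 199 and 194 to 183 and 294 in Otx2+/GFP against Otx2+/AA, 504 and 579 to 252 and 1222 between ventricles, and 120 and 132 to 165 and 93 by model.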
